A study of Mus musculus with 14 samples.

Results

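Interferon-gamma is the main cytokine that T cells and NK cells use to activate macrophages and other tissue cells. It binds a receptor of a ligand-binding chain, Ifngr1, and a signalling chain, Ifngr2, to which the kinases Jak1 and Jak2 are attached. These phosphorylate STAT transcription factors, which switch on further factors such as Irf1 and Irf8, antigen presentation genes and Socs1, the inhibitor that binds the kinases and shuts the pathway down. In a heart transplanted between strains, the cytokine is known as a product of the T cells that enter the graft. The genes described here were chosen by name from the array annotation: the cytokine Ifng, its receptor chains Ifngr1 and Ifngr2, the kinase Jak2, the interferon regulatory factors Irf1 and Irf8, and Socs1. They are 7 of the 8252 genes named on the array, measured by 8 of its 12488 probe sets, 7 of which were tested.

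RNA from 14 transplanted mouse hearts was hybridised to Affymetrix MG-U74Av2 arrays, and each array is taken as 1 heart. Rejecting allografts were Balb/c hearts placed in C57/BL6 recipients with no antibody and taken at day 7 (n = 3). Tolerizing allografts were Balb/c hearts in C57/BL6 recipients that received a monoclonal antibody against CD80/86, costimulatory molecules of antigen presenting cells, and were taken at day 7 (n = 3). Isografts were C57/BL6 hearts in C57/BL6 recipients, taken at day 7 (n = 3). Further tolerizing allografts (n = 3) and isografts (n = 2) were taken at day 70. Donor strain thus differs between the allografts and the isografts in each comparison of these, and the 14 arrays hold no rejecting heart of day 70. Age and sex of the mice, antibody dose and whether replicate hearts came from separate operations or litters are unstated in the labels, so p-values measure the spread between these arrays, which may be partly technical.

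Values are signal intensities on a linear scale with no unit, and signals at or under a floor of 11 were treated as not measurable. The arrays were evenly scaled, and between 72% and 78.8% of their signals lay above the floor. H2-Ea, a class II gene that mice of the C57/BL6 strain do not express, lay between 48.1 and 217.3 in rejecting, 408.5 and 552 in tolerizing day 7 and 446 and 537.8 in tolerizing day 70 hearts, against 2.5 to 8.1 in day 7 and 5.6 to 12.3 in day 70 isografts, so each array matched its donor label. The summed signal of 8 cardiac muscle markers was 3577 to 17595 in rejecting and 17950 to 27138 in tolerizing hearts, against 28460 to 41518 in day 7 isografts. The later tolerizing hearts had 25200 to 35588, against 33950 to 42536 in the later isografts. In whole hearts, fewer cells of a type and less RNA per cell cannot be told apart. The ratio of 3' to 5' beta-actin signal, a measure of RNA integrity, was 1.26 to 1.61 in rejecting and 1.09 to 1.37 in tolerizing hearts, against 1.52 to 1.98 in the day 7 isografts. The ratio was 1.24 to 1.69 in tolerizing hearts of day 70, against 1.75 and 1.76 in isografts of that day, and at both days tolerizing hearts and isografts did not overlap in it.

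Ifng itself was brightest in rejecting hearts. Its signal was 17.9, 35.2 and 111.5 in the rejecting arrays 1, 2 and 3, and 14.3, 2.9 and 7.7 in the tolerizing arrays of day 7, against 0.9, 0.4 and 1.7 in the day 7 isografts. At day 70 it was 14.4, 9.9 and 6.4 in tolerizing hearts, against 0.9 and 1.3 in isografts. The 3 rejecting arrays lay above the floor and above the 11 others, and differed widely among themselves. A single tolerizing array at each day passed the floor, and the 5 isograft arrays lay under it. The filter asked for 3 arrays above the floor, so the gene was testable only because of the rejecting hearts, where it is high. Its tests below are therefore a description.

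Against day 7 isografts, Ifng rose at least 3.75-fold in rejecting hearts (log2 difference 1.91, SE 0.46, 95% interval 0.91 to 2.90; limma adjusted p = 0.0112). The difference was 1.19 on the log2 scale without rejecting array 3 (adjusted p = 0.00743) and 2.51 without rejecting array 1 (adjusted p = 0.00155). Among the 5 arrays listed first in submission order, 1 for each group, it was 3.34, from rejecting array 3 against the floor. The 9 arrays listed last lack rejecting array 3, so these are not separate checks. The call was lost with only the groups compared in the fit (adjusted p = 0.113), in the 9 arrays listed last (log2 difference 1.19, 0.0608), with beta-actin ratio as covariate (0.0603), and with the floor at the 50th percentile (0.395). Against tolerizing hearts of day 7, rejecting hearts were higher by 1.78 on the log2 scale (SE 0.46, 95% interval 0.79 to 2.77), but the adjusted p of 0.0803 missed the threshold of 0.05. That comparison passed in only 3 of 19 alternative fits. These were without rejecting array 1 (2.38, adjusted p = 0.0121), without rejecting array 3 (1.06, adjusted p = 0.0301) and with array weights (1.55, adjusted p = 0.00301). It did not pass without rejecting array 2 (0.178) or without tolerizing array 1 (0.0932), 2 (0.290) or 3 (0.223). Over the 19 fits the log2 difference went down to 0.48 and the adjusted p up to 0.574.

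**Figure D1:**
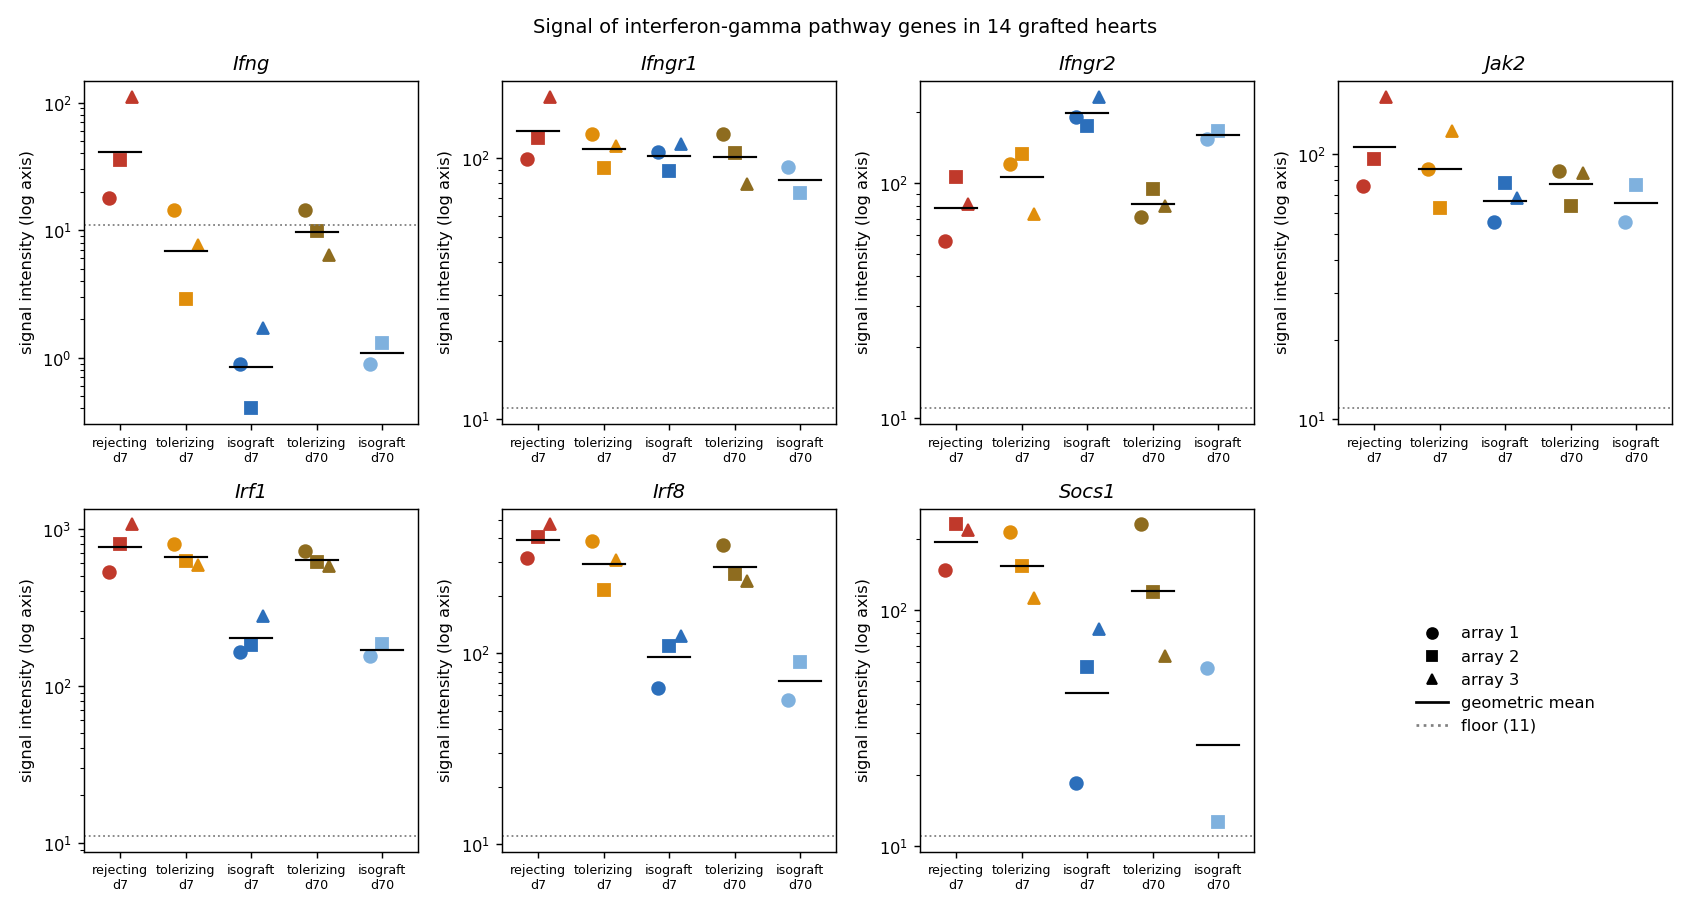
Signal of 7 interferon-gamma pathway genes on each array (log axis, linear signal units), with 1 symbol for each array, a bar for the geometric mean of the group and a dotted line at the floor of 11. Irf1 and Irf8 are higher in the 9 allografts than in the 5 isografts, Ifngr2 is lower in the allografts, and Ifng lies above the floor on all 3 arrays only in rejecting hearts.

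The lymphocyte markers of the same arrays ran in a similar order. The summed signal of 17 measured T and NK cell markers of 19 listed was 1356, 2159 and 6048 in rejecting arrays 1, 2 and 3. At day 7 the sum was 918 to 1711 in tolerizing hearts, against 256 to 708 in isografts, and at day 70 the tolerizing sum was 735 to 1659, against 266 to 302 in isografts. Rejecting array 3 held both the most Ifng signal and the most lymphocyte marker signal. Of these markers 16 were tested, and 13 rose in rejecting hearts against day 7 isografts, where 8.54% of all tested probe sets rose. In tolerizing hearts of day 7, 2 (Cd8a and Cd8b1) rose against the same isografts, where 0.943% of probe sets did. Between rejecting and tolerizing hearts 0 passed, where 1.41% of probe sets did. The median log2 difference of the markers there was 1.02, against 0.06 over all tested probe sets. Ncr1, a receptor of NK cells, lay under the floor on each of the 14 arrays, and Cd8a lay at 2.4 and 3.2 in the day 70 isografts. The part of cell numbers in the Ifng difference was not tested.

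**Figure D2:**
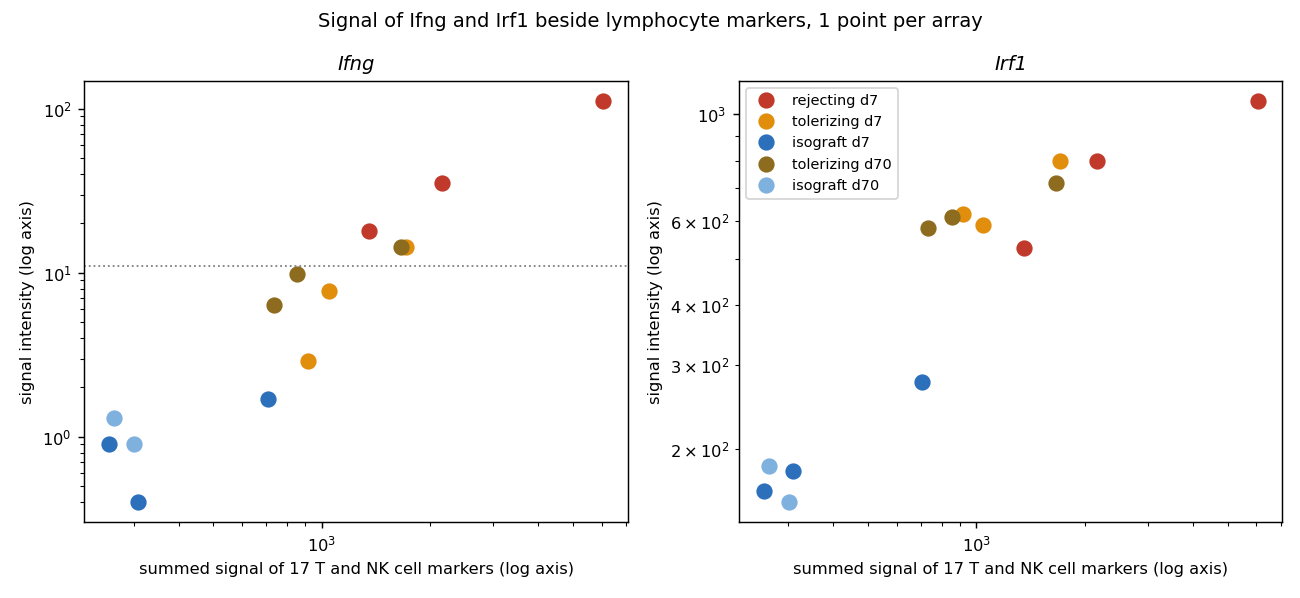
Signal of Ifng (left) and Irf1 (right) against the summed signal of 17 T and NK cell markers, with log axes on both, 1 point for each array and colours for the 5 groups; the dotted line is the floor of 11. Ifng spans 2.9 to 111.5 over the 9 allografts, while Irf1 spans 526.2 to 1064.7 in the same hearts, against 155.3 to 276.9 in the 5 isografts.

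Irf1 and Irf8, transcription factors of the interferon regulatory family, rose in rejecting hearts and in tolerizing hearts of both days against isografts. Irf1 acts early in the response and is needed for many of the genes that interferon-gamma induces. Irf8 is also a factor of macrophage and dendritic cell development. Promoter sequence is shown for Irf1, Irf8 and Socs1, the members downstream of the receptor that rose, since STAT dimers are known to bind motifs of the form TTCNNNGAA, and interferon regulatory factors bind an element (ISRE) whose core is GAAA and GAAA with any 2 bases between. The windows are RefSeq's on GRCm38.p6, 300 bases from 250 before to 50 after the start, given 5' to 3' in the direction of the gene, and capitals mark the matches. Irf1 is at chr11:53769764-53770063 on the plus strand, Irf8 at chr8:120736108-120736407 on the plus strand and Socs1 at chr16:10785487-10785786 on the minus strand.
Irf1: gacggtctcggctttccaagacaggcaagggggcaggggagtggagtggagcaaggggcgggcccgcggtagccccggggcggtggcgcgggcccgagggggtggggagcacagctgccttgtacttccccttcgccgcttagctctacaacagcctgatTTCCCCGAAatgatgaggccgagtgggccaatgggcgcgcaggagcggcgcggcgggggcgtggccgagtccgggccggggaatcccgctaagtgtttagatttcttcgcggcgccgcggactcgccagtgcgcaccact
Irf8: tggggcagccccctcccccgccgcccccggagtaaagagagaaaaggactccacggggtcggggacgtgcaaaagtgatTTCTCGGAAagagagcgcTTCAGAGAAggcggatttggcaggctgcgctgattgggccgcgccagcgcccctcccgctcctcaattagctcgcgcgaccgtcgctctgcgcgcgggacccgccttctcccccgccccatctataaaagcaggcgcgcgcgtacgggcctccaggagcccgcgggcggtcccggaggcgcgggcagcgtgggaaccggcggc
Socs1: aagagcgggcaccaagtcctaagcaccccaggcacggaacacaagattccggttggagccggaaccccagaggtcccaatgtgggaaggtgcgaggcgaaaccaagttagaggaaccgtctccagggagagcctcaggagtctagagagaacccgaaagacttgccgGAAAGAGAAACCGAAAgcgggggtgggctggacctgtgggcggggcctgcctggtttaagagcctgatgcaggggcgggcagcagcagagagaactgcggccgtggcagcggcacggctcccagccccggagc
Irf1 held TTCCCCGAA at 90 to 82 bases before the start. Irf8 held TTCTCGGAA at 171 to 163 and TTCAGAGAA at 153 to 145 bases before it. In Socs1, GAAAGAGAAA at 83 to 74 and GAAACCGAAA at 77 to 68 bases before the start overlap. The Ifng window held TTCAGAGAA at 249 to 241 bases before its start, and those of Ifngr1, Ifngr2 and Jak2 held neither motif. RefSeq lists a second start for Irf1 (window chr11:53770223-53770522) and for Irf8 (chr8:120738389-120738688), and neither of these windows held a match. Over the 32851 RefSeq promoter windows, 8.3% held TTCNNNGAA, which reads the same on both strands, and 3.44% held the ISRE core on either strand. A match describes the letters and says nothing about binding in these hearts.

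The Irf1 signal was 526.2, 798.9 and 1064.7 in rejecting arrays and 798, 620.3 and 587.9 in tolerizing arrays, against 164, 180.4 and 276.9 in isograft arrays of day 7. Irf1 at day 70 was at 718.7, 610.7 and 578 in tolerizing hearts, against 155.3 and 185 in isografts. The lowest of the 9 allografts lay above the highest of the 5 isografts, and the allografts overlapped among themselves. The group means were 797 ± 269 in rejecting and 669 ± 113 in tolerizing hearts, against 207 ± 61.0 in isografts (SD, n = 3 each), at day 7. Rejecting hearts were 3.79-fold above isografts (log2 difference 1.92, SE 0.26; limma adjusted p = 0.000436), tolerizing hearts of day 7 3.29-fold (1.72, SE 0.26; adjusted p = 0.00324) and tolerizing hearts of day 70 3.73-fold above isografts of that day (1.90, SE 0.29; adjusted p = 0.00249). The day 7 call in tolerizing hearts was lost with beta-actin ratio as covariate (1.39, adjusted p = 0.254) and with only the compared groups in the fit (adjusted p = 0.0506), and the day 70 call was lost without isograft array 1 (adjusted p = 0.0524). That last fit leaves 1 isograft of day 70, which is assumed to vary like the other groups.

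The Irf8 signal was 316.7, 403.4 and 472.8 in rejecting arrays and 387.5, 213.7 and 308.4 in tolerizing arrays, against 65.8, 109.3 and 122.9 in isograft arrays of day 7. The day 70 signal of Irf8 was 368.4, 260.5 and 237.4 in tolerizing hearts, against 56.9 and 89.8 in isografts. As for Irf1, the 9 allografts and the 5 isografts did not overlap. Irf8 was 4.09-fold above isografts in rejecting hearts (2.03, SE 0.29; adjusted p = 0.000679), 3.07-fold in tolerizing hearts of day 7 (1.62, SE 0.29; adjusted p = 0.0131) and 3.97-fold in tolerizing hearts of day 70 (1.99, SE 0.33; adjusted p = 0.00443). In tolerizing hearts of day 7 the call was lost without tolerizing array 1 (adjusted p = 0.0827), tolerizing array 3 (0.0586) or isograft array 1 (0.0610), with no filter (0.0524), with only the compared groups (0.0953), in the 9 arrays listed last (0.126) and with the beta-actin covariate (0.243). At day 70 it was lost with only the compared groups (0.106), and also without isograft array 1 (0.0999) and in the 9 arrays listed last (0.0532), both of which leave 1 isograft whose spread is taken from the other groups.

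Irf8 is made by macrophages, and the summed signal of 13 macrophage and monocyte markers was also higher in the allografts than in the isografts. Within rejecting hearts the order was reversed. On arrays 1, 2 and 3 the sum fell from 13258 to 12777 and 11140, while Irf8 rose. In each other group the sum and Irf8 were highest on the same array. At day 7 the sum was 11140 to 13258 in rejecting and 6378 to 10042 in tolerizing hearts, against 4005 to 4691 in isografts. The day 70 sum was 6712 to 9842 in tolerizing hearts, against 1491 to 3417 in isografts. Of these 13 markers, 10 rose and 1 fell in rejecting hearts, 1 rose in tolerizing hearts of day 7 and 5 at day 70, each against isografts of the day. Of all tested probe sets 8.54% rose and 9.18% fell in rejecting hearts. In tolerizing hearts 0.943% rose at day 7 and 2.35% at day 70. The 6 dendritic cell markers summed to 466.8 to 551.3 in rejecting and 406.8 to 546.8 in tolerizing hearts, against 342.1 to 431.3 in isografts, at day 7, where tolerizing hearts and isografts overlapped. At day 70 they summed to 613 to 708.5 in tolerizing hearts, against 469.1 to 502.1 in isografts, with no overlap. The part of these cells in the Irf8 difference was not tested.

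Socs1 was high in the allografts but varied more between arrays. Its signal was 147.4, 230 and 217 in rejecting arrays and 213.4, 152.6 and 111.6 in tolerizing arrays, against 18.4, 57.2 and 83.1 in isograft arrays of day 7. Socs1 at day 70 was at 229.7, 119.2 and 63.4 in tolerizing hearts, against 56.9 and 12.6 in isografts. Within each day the allografts lay above the isografts, at day 70 by a narrow margin (63.4 against 56.9). The share of all probe sets that separate in this way within a day was not computed, so this is only a description. Rejecting and tolerizing hearts overlapped. The arrays overlapped across days, since the dimmest tolerizing array of day 70 lay below the brightest isograft of day 7. Socs1 rose 4.38-fold in rejecting hearts against isografts (2.13, SE 0.62; limma adjusted p = 0.0297). That call was lost without rejecting array 2 (adjusted p = 0.0933), rejecting array 3 (0.0624), isograft array 1 (log2 difference 1.5, 0.134) or isograft array 2 (0.0528), with no filter (0.0794) and with only the compared groups (0.0603). In tolerizing hearts the log2 difference from isografts was 1.79 at day 7 (95% interval 0.45 to 3.13; adjusted p = 0.214) and 2.17 at day 70 (0.67 to 3.67; adjusted p = 0.127), and neither passed.

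Ifngr2, the signalling chain of the receptor, ran the other way. Its signal was 56.4, 105.3 and 81 in rejecting arrays and 120.6, 132 and 73.3 in tolerizing arrays, against 190.8, 174.7 and 232.1 in isograft arrays of day 7. Ifngr2 at day 70 was at 71.2, 93.7 and 79.8 in tolerizing hearts, against 153.5 and 165.3 in isografts. The 9 allografts lay below the 5 isografts with no overlap. Against isografts, Ifngr2 fell 2.52-fold in rejecting hearts (log2 difference -1.34, SE 0.27, 95% interval -1.91 to -0.76; limma adjusted p = 0.00381). In tolerizing hearts the difference was -0.91 at day 7 (adjusted p = 0.127) and -0.97 at day 70 (adjusted p = 0.103), and neither passed.

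In the RefSeq gene order of GRCm38.p6, Ifngr2 lies on chromosome 16 beside Ifnar1, Il10rb and Ifnar2, chains of related receptors. Il10rb, a chain of the interleukin-10 receptor, also fell in rejecting hearts (522 ± 60.7, against 858 ± 32.9 in isografts; SD, n = 3 each; log2 difference -0.72, adjusted p = 0.00895). Without passing, Il10rb was also lower in tolerizing hearts, at 537 to 586, against 832.8 to 894.8 in isografts, at day 7. At day 70 it was at 598 to 685.6, against 716.4 and 1056.1. Ifnar1 (-0.22, adjusted p = 0.647) and Ifnar2 (0.29, adjusted p = 0.674), the chains of the type I interferon receptor, did not pass in rejecting hearts. Of the 5 other chains of this receptor family that were tested, 1 rose and 2 fell there, where 8.54% and 9.18% of all tested probe sets did. Il10ra rose (2.25, limma adjusted p = 0.0117), and F3 fell (-1.235, adjusted p = 0.0341) besides Il10rb. The sum of 6 endothelial markers was 471.7 to 572.1 in rejecting and 655.5 to 773.4 in tolerizing hearts, against 789.1 to 1528 in isografts, at day 7. At the later day this sum was 673.8 to 798.2 in tolerizing hearts, against 949.2 to 1078 in isografts. The cardiac marker sum given above is also lowest in rejecting hearts, and the part of either in the Ifngr2 difference was not tested. Donor strain also differs between the allografts and the isografts, and its part cannot be told apart here.

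Ifngr1, the ligand-binding chain, and Jak2, the kinase that Ifngr2 carries, did not pass in any comparison. The Ifngr1 signal was 99.4 to 171.8 in rejecting and 91.5 to 123.3 in tolerizing hearts, against 88.9 to 112.9 in isografts, at day 7. At day 70 it was 79.3 to 123.1 in tolerizing hearts, against 73.2 and 92.7 in isografts. These ranges overlap, and the difference between rejecting hearts and isografts was 0.31 on the log2 scale, with a 95% interval of -0.21 to 0.84. Jak2 was at 75.5, 95.7 and 164.4 in rejecting arrays and 62.5 to 122 in tolerizing arrays, against 55.3, 78 and 68.2 in isograft arrays, at day 7, and at 63.5 to 86.1 in tolerizing hearts, against 55.4 and 76.5 in isografts, at day 70. Its difference between rejecting hearts and isografts was 0.67 (-0.01 to 1.36; limma adjusted p = 0.179), and the groups overlapped between the rejecting array 1 and the isograft array 2. A second Jak2 probe set lay at 0.6 to 6.3 on the 14 arrays, under the floor, and was not tested. The partner kinase Jak1 had a log2 difference of 0.02 (adjusted p = 0.980).

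Of the 7 genes, 5 passed in rejecting hearts against isografts, 4 higher and 1 lower, where 17.7% of the 10395 tested probe sets passed, 8.54% higher and 9.18% lower. Ifng passed the filter on low signals only through the rejecting hearts, where it is high. This count, and those between rejecting and tolerizing hearts below, are therefore descriptions. In tolerizing hearts of day 7 against isografts 2 of 7 passed, both higher, where 1.69% of probe sets passed, 0.943% higher and 0.75% lower. At day 70 the count was again 2 of 7, both higher, where 3.2% passed, 2.35% higher and 0.856% lower. Between rejecting and tolerizing hearts 0 of 7 passed, where 1.41% of probe sets passed, 0.529% higher and 0.885% lower. In that comparison 1 of 7, Ifng, had an unadjusted p under 0.05, as did 15.1% of the tested probe sets. Over both days, 3 of 7 (Irf1, Irf8 and Ifngr2) did not overlap between the 9 allografts and the 5 isografts, as was the case for 5.2% of the tested probe sets, 2.65% higher and 2.56% lower in each allograft. Within the 5 arrays listed first, the rejecting minus isograft difference was 1.94 for Irf1, 1.94 for Irf8 and -1.52 for Ifngr2, and within the 9 listed last 1.91, 2.08 and -1.24. For tolerizing minus isograft hearts of day 7, Irf1 differed by 1.09 in the first of these sets and 2.03 in the other.

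**Figure D3:**
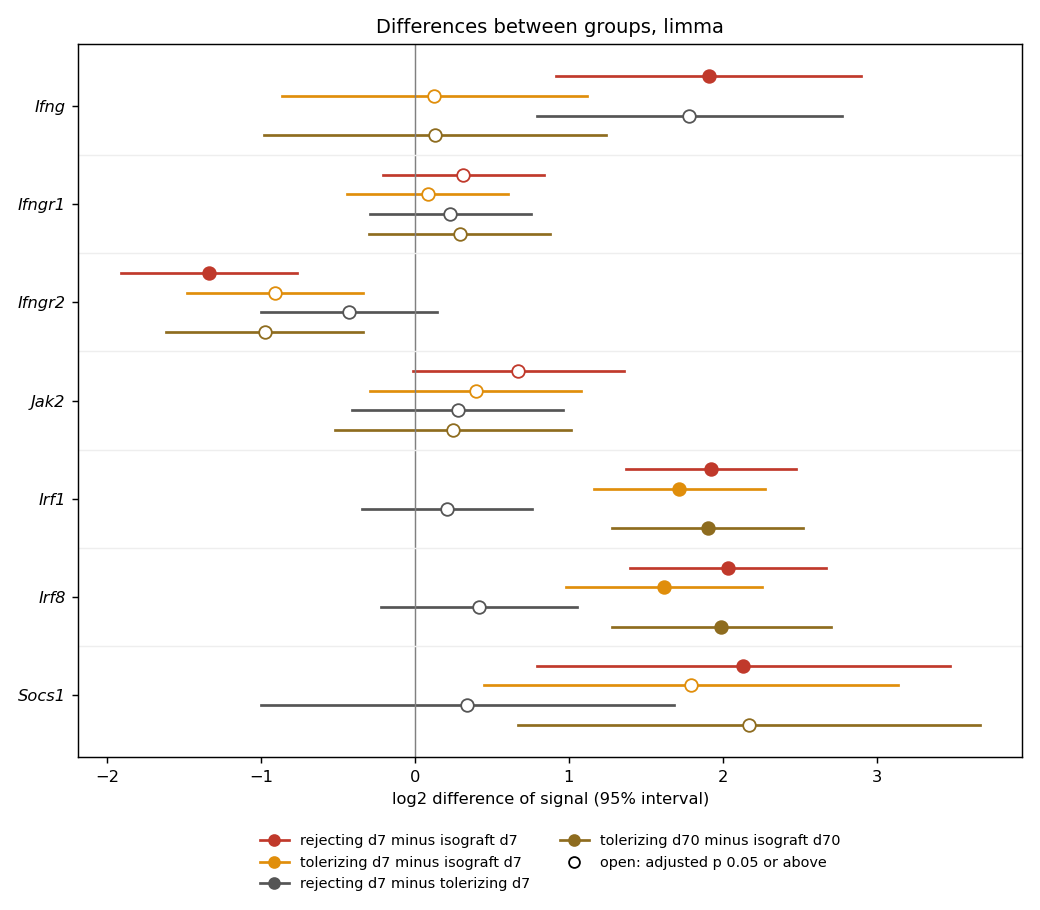
Log2 difference of signal with its 95% interval for the 7 genes in 4 comparisons; filled points have an adjusted p under 0.05 and open points do not. Irf1 and Irf8 are filled in the 3 comparisons with isografts, Ifng, Ifngr2 and Socs1 for rejecting minus isograft hearts, and no point is filled for rejecting minus tolerizing hearts.

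Rejecting and tolerizing hearts have the same donor and recipient strains and differ by the antibody. Beyond Ifng, the log2 differences were 0.21 for Irf1 (95% interval -0.35 to 0.76), 0.41 for Irf8 (-0.22 to 1.05), 0.34 for Socs1 (-1.0 to 1.68) and -0.43 for Ifngr2 (-1.0 to 0.14). These intervals include 0, and that of Socs1 is too wide to exclude a change of more than 1 in either direction. Within groups, rejecting array 3 was the brightest of its group for 5 of 7 genes, and tolerizing array 1 was the brightest for 5 of 7 at day 7 and 6 of 7 at day 70.

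Between the days no member passed. Between day 70 and day 7, 0 of 7 passed in tolerizing hearts, where 0.0385% of probe sets passed, and the differences ran from -0.38 for Ifngr2 to 0.00 (each adjusted p 0.947 or higher). With the replicate number as a block, 0 of 7 passed as well, and 12 probe sets were called in place of 4. For Irf1 the interval was -0.62 to 0.49 and for Irf8 -0.69 to 0.58. In isografts 0 of 7 passed, and 0% of the tested probe sets did by limma, of which 559 had an unadjusted p under 0.05. The interaction test, of whether the difference between tolerizing hearts and isografts changed between the days, called 0 of 7 and 0% of probe sets, 409 with an unadjusted p under 0.05. The interaction was 0.18 for Irf1 (-0.65 to 1.01) and 0.37 for Irf8 (-0.58 to 1.32), so a moderate change between days is within the error.

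The genes that interferon-gamma is known to induce rose in most cases in the allografts. Of 30 measured, 27 rose in rejecting hearts, 20 in tolerizing hearts of day 7 and 24 at day 70, and 0 fell. The medians of their log2 differences were 2.00, 1.75 and 2.38, against 0.04, -0.02 and -0.09 over all tested probe sets. Of those probe sets 8.54%, 0.943% and 2.35% rose. Igtp, a GTPase of cell-autonomous defence, rose 9.22-fold in rejecting hearts (log2 3.21, adjusted p = 5.41e-05) and 14.9-fold in tolerizing hearts of day 70 (3.90, adjusted p = 4.88e-05). Irgm2 of the same family rose by 2.00 and 2.42 on the log2 scale in rejecting and tolerizing hearts of day 7, and Psmb8, a subunit of the immunoproteasome, by 2.26 and 2.13. The class II gene H2-Ab1 rose 6.97-fold in rejecting hearts, though allograft and isograft hearts carry different alleles of it, whose part in the signal was not tested. Between rejecting and tolerizing hearts 0 of these 30 passed, with a median of 0.08, where 1.41% of all tested probe sets passed. The list was drawn up with earlier results of these arrays known, so its direction is no independent evidence.

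**Figure D4:**
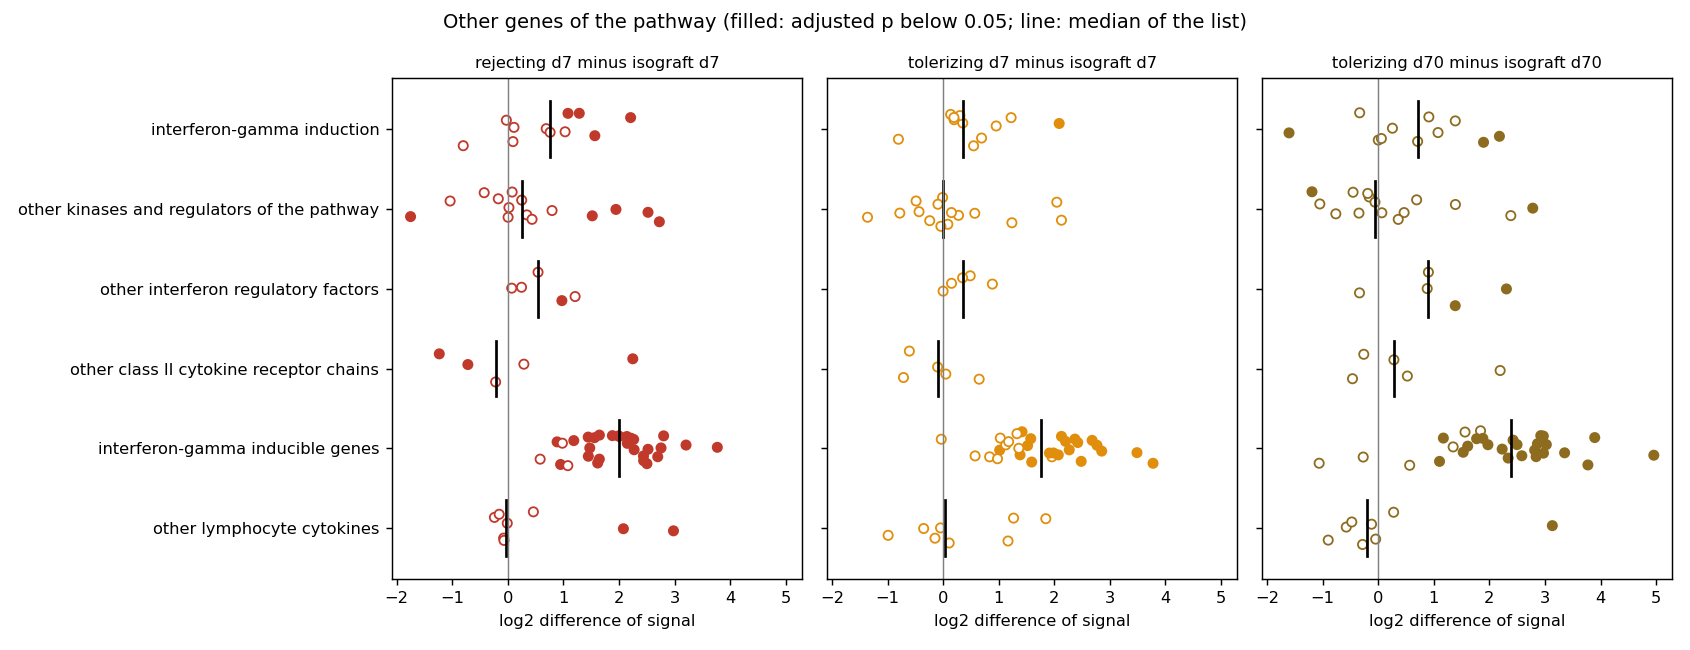
Log2 difference of each gene of 6 lists in 3 comparisons with isografts; filled points have an adjusted p under 0.05 and the bar is the median of the list. The inducible genes lie mostly to the right of 0 (medians 2.00, 1.75 and 2.38), while the list of other kinases and regulators has medians of 0.25, -0.01 and -0.06, and the other interferon regulatory factors of 0.54, 0.35 and 0.90.

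Upstream of Ifng lie the cytokines and factors that induce it. Of 11 tested genes tied to its induction, which include the inhibitor Il18bp, 4 rose in rejecting hearts against isografts. In tolerizing hearts 1 rose at day 7, Il18bp itself, and at day 70 2 rose and 1 fell. Of all tested probe sets 8.54%, 0.943% and 2.35% rose in these comparisons, and 0.856% fell at day 70. Il18bp, the protein that binds and blocks interleukin-18, rose 4.62-fold in rejecting (log2 2.21, SE 0.27; limma adjusted p = 0.000228) and 4.25-fold in tolerizing hearts of day 7 (2.09, adjusted p = 0.00131). Il12rb1, a receptor chain of interleukin-12, rose by 1.28 (adjusted p = 0.00895), Il18 by 1.08 (adjusted p = 0.0200) and its receptor Il18r1 by 1.56 (adjusted p = 0.0149) in rejecting hearts. At day 70 Il18r1 rose by 2.18 and Il18bp by 1.89, while Il15, a cytokine of NK cells and memory T cells, was at least 3.05-fold lower in tolerizing hearts, whose arrays lay under the floor (adjusted p = 0.0284). Each allograft array lay under the floor for Il15 (highest 10.8). The gene thus passed the filter only through the isografts, where it is high. Its test, and the 1 fall counted above, are therefore descriptions.

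Among 15 tested kinases and regulators, 4 rose and 1 fell in rejecting hearts against isografts. Of all tested probe sets 8.54% rose and 9.18% fell there. Socs3, an inhibitor of cytokine signalling like Socs1, rose 3.85-fold (log2 1.94, adjusted p = 0.00597). Ptpn6, a phosphatase of blood cells, rose 6.61-fold and Ptprc, the pan-leukocyte marker CD45, by 2.52 on the log2 scale. Socs2, an inhibitor of growth hormone signalling, fell 3.37-fold (-1.75, SE 0.26, adjusted p = 0.000707). It was also the only gene of the 6 lists to pass between rejecting and tolerizing hearts, where 1.41% of all tested probe sets passed. Socs2 was at 61.4 ± 4.0 in rejecting hearts, against 153 ± 5.0 in tolerizing hearts (SD, n = 3 each), a log2 difference of -1.32 (adjusted p = 0.0224). At day 70, 1 of the 15 rose and 1 fell in tolerizing hearts against isografts, where 2.35% and 0.856% of all tested probe sets did. Ptpn6 rose by 2.78 on the log2 scale (limma adjusted p = 0.0158). Socs2 was lower there too, at 72.2 to 93.8, against 125.6 and 278.4 in isografts (-1.19, adjusted p = 0.0388). Of the 5 other interferon regulatory factors, Irf5 rose in rejecting hearts (0.97, adjusted p = 0.00607), and Irf5 (1.39) and Irf7 (2.31, adjusted p = 0.0291) rose in tolerizing hearts of day 70. In rejecting hearts that is 20% of the list, near the 17.7% of all tested probe sets that passed. At day 70 it is 40%, against 3.2%.

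Genes with the most similar pattern were found as those with the smallest root mean square difference of log2 signal over the 14 arrays, after centring, for the 5 members whose group means spanned at least 1. For Irf1 these were Il18bp (0.19), H2-K1 (0.23) and the member Irf8 (0.23). Il18bp was at 366 ± 129 in rejecting hearts, against 76.6 ± 13.8 in day 7 isografts, and H2-K1, a class I gene, at 4139 ± 269, against 1999 ± 228 (SD, n = 3 each). For Irf8 they were Ptpn22 (0.19), Irf1 (0.23) and H2-DMa (0.25), and for Ifngr2 they were Gna12 (0.22), Ghr (0.28) and Sox18 (0.28). Ifng lay nearest to Icos (0.21), a T cell costimulatory receptor, Klrc1 (0.37), an NK cell receptor, and Ifi209 (0.38). Signals under the floor were raised to it before this search. Icos lay under it in the isografts and in tolerizing hearts of day 7 (highest 9.6), where Ifng was mostly under it too. Part of the nearness of these genes is thus set by the floor. For Socs1 the nearest, Trbv1, Slfn1 and Uhrf1, were farther away, at 0.63 each. Icos was at 5.3 to 115.5 in rejecting hearts, against 1.5 to 8.4 in day 7 isografts.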

How the data were processed

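The deposited table holds the authors' signal intensity for each probe set and array on a linear scale, with software and scaling not given in the sources used here. All signals below 11, which is the 25th percentile of the deposited values, were raised to 11 before taking log2. The 10395 probe sets that exceeded it on 3 or more arrays were kept, and 66 control probe sets were left out. Gene names follow GEO's platform table with RefSeq symbols by gene ID (10817 of 10833 probe sets with 1 gene), and the 396 probe sets with several genes and 1193 with none were not named. The 5 groups entered 1 fit in R 4.3.3 with limma 3.58.1 (trend). P-values are two-sided and adjusted by Benjamini-Hochberg over the probe sets of a comparison, threshold 0.05. Depth does not apply to arrays: the number of arrays limits the precision. The fit was tested on simulated data.

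Named are the members throughout and the 3 genes nearest in pattern to a member. From each other list, genes were drawn mainly from the up to 4 called genes of smallest p for each comparison, not all of which are printed. Some genes that did not pass, such as Jak1, Ifnar1 and Il4, are given beside them. The brightest probe set stood for a gene outside the members, except in the search for similar patterns, which took each tested probe set with 1 gene. Same-numbered tolerizing arrays of day 7 and day 70 deviated together (r of 0.34, 0.25 and 0.27 for numbers 1, 2 and 3), so a fit with the number as a block is given beside that comparison. The labels do not say what the numbers share. In no other comparison did each pair exceed 0.1. Members, lists and tests were chosen with earlier results of these data known. The alternatives were scaling, floor, pseudocount, filter, trend, array weights, the groups fitted, the submission order, the replicate number as a block, a beta-actin covariate and leaving out each array.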

Additional observations from a re-analysis of the deposited data

How the results depend on the processing

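Of 177 refits of the 9 calls for the members, 154 stayed past the threshold and 0 changed sign. Ifng, testable only through the rejecting hearts, gave 19 of these refits, of which 15 stayed, so the tally is a description. Irf1, Irf8 and Ifngr2 in rejecting hearts against isografts passed under each of their 20 alternatives. With only the compared groups in the fit, the number of members called was 3 in place of 5 in rejecting hearts against isografts, 0 in place of 2 in tolerizing hearts of day 7 and 1 in place of 2 at day 70. In the 9 arrays listed last it was 1 in both tolerizing comparisons with isografts, with no filter 1 at day 7, and with beta-actin ratio as covariate, chosen after seeing the data, 0 at day 7. With array weights 1 was called between rejecting and tolerizing hearts, in place of 0. Leaving out 1 array gave 4 to 5, 1 to 2, 0 to 1 and 0 to 2 in these 4 comparisons (rejecting minus isograft, tolerizing minus isograft at day 7, rejecting minus tolerizing, tolerizing minus isograft at day 70). Over all probe sets the alternatives called 1153 to 2948 (1842 as reported), 8 to 364 (176), 20 to 1512 (147) and 37 to 405 (333), and 0 to 46 (4) for tolerizing hearts over time, 0 to 32 (0) for isografts over time and 0 to 10 (0) for the interaction. The cause of these shifts was not tested.

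With the replicate number as a block, the members called stayed at 5, 2, 0 and 2 in the same 4 comparisons and the probe sets called were 1991, 184, 187 and 381. Outside tolerizing hearts over time, the numbers were not taken as pairs: deviations of arrays with the same number correlated at -0.18 to 0.34 over all groups (median 0.05, 11 of 26 over 0.1), against -0.30 to 0.19 for different numbers (median -0.06, 7 of 52 over 0.1). As a hint from the data, 11 of 14 arrays were closer to their own number on average. The arrays numbered 3 are all among the 5 listed first and those numbered 1 all among the 9 listed last. The number thus partly follows the submission order, and the part of each was not tested. With 2 or 3 arrays a group, dim genes such as Ifng are limited by the floor.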

Other observations

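Of 8 other lymphocyte cytokines tested, Ltb, a membrane-bound cytokine of lymphocytes, rose by 2.08 on the log2 scale in rejecting hearts against isografts of day 7 (limma adjusted p = 0.0162) and by 3.13 in tolerizing hearts at day 70 (adjusted p = 0.0109). Il6, a cytokine of inflammation, rose 7.88-fold in rejecting hearts (2.98, adjusted p = 0.00313). The T helper cytokines Il4 and Il5 had log2 differences of -0.08 and -0.01 in rejecting hearts, with adjusted p of 0.873 and 0.996.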
